A study of Mus musculus with 12 samples.

Results

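The 9 Wnt ligand genes described here are *Wnt3*, *Wnt3a*, *Wnt4*, *Wnt5a*, *Wnt6*, *Wnt7a*, *Wnt7b*, *Wnt10a* and *Wnt10b*. They were taken by gene symbol from the 770 genes of a murine cancer pathway panel, which holds 15 Wnt ligands in all. The list was chosen with earlier results of these data known, so its counts beside all genes are a description. The panel was read with the nCounter assay, in which barcoded probes bind RNA molecules that are then counted without amplification. The study asked whether Shh and Wnt signaling are active in intraocular medulloepithelioma, an embryonal tumor of the eye, and what turning on both does in mice, among them the *RBS* mice measured here. The 5 *RBS* lesions came from *Rax-creERT2::Ctnnb1(ex3)fl/+SmoM2fl/+* embryos at E18.5, given tamoxifen at E8.5. The 4 control eyes came from *Ctnnb1(ex3)fl/+SmoM2fl/+* embryos at E18.5, which carried both floxed alleles and no Cre. For its protein measurements the study took control eyes from littermates and lists them by time of tamoxifen, but whether the control embryos measured here were exposed is not given in the sources used here, and the part of tamoxifen itself in any difference was not tested. The 3 Shh medulloblastomas (Shh-MBs) were cerebellar tumors of *hGFAP-cre::SmoM2fl/+* mice at 14 days of age. In *RBS* mice, Cre runs from the *Rax* promoter, which is active in the early eye field, so a lesion can also hold host cells without recombination. The *Ctnnb1* allele yields a stabilized beta-catenin after Cre, and *SmoM2* is an active form of Smoothened, the transducer of Hedgehog signals. Each sample was a single lesion, eye or tumor of an individual animal, and tissue, age and genotype cannot be told apart where Shh-MBs are set against eyes.

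Wnt ligands are secreted, lipid-modified glycoproteins that bind Frizzled receptors on nearby cells. In the beta-catenin branch, binding with the co-receptors Lrp5 and Lrp6 stops the breakdown of beta-catenin, which then acts with TCF/LEF factors in the nucleus. Other branches run through planar cell polarity and calcium. In the embryonic eye, Wnt signals are known to take part in forming the pigment epithelium, the ciliary margin, the lens and the surface ectoderm. Both engineered alleles act inside the receiving cell, downstream of any ligand.

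The values are a background-subtracted, normalized signal on the linear scale. Each gene has its own probe, so levels were not compared between genes, apart from the summed marker signals below. A gene without signal above background sits at the lowest value of its sample, between 1 and 1.64, and 52 to 123 of the 770 genes did so per sample. Depth, estimated from the total signal and the smallest step between values, was 335392 counts above background in RBS 1, the shallowest sample, and up to 716684 in control 2. One step was 0.81 to 1.64, so the lowest members rest on a few counts, and this depth limits their precision. Each difference below is on the scale of log2(signal + 1), which understates changes of low genes.

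The start regions of 3 ligands that were higher in *RBS* lesions in every sample are shown first. Of the 9 genes, 6 have a promoter in the RefSeq table of GRCm38.p6, namely *Wnt3*, *Wnt3a*, *Wnt4*, *Wnt6*, *Wnt7a* and *Wnt10b*. *Wnt5a*, *Wnt7b* and *Wnt10a* are named only. The windows hold 250 bases before and 50 bases from the start on. The bases before the start are printed 5′ to 3′ on the strand of the gene, with every CG dinucleotide in capitals, because this feature set these windows apart from most windows of the genome. *Wnt3* is at chr11:103773925-103774174 on the plus strand, *Wnt10b* at chr15:98778151-98778400 on the minus strand and *Wnt7a* at chr6:91411354-91411603 on the minus strand.
Wnt3: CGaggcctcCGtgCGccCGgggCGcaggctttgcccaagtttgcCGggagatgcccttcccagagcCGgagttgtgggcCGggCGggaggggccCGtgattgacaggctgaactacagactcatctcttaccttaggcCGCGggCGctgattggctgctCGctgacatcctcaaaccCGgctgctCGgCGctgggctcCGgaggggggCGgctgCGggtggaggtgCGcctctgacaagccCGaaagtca
Wnt10b: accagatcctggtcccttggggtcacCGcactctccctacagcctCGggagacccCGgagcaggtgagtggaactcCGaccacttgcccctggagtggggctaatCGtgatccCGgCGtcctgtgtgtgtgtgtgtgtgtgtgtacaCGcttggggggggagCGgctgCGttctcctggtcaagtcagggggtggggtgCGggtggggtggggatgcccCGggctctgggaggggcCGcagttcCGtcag
Wnt7a: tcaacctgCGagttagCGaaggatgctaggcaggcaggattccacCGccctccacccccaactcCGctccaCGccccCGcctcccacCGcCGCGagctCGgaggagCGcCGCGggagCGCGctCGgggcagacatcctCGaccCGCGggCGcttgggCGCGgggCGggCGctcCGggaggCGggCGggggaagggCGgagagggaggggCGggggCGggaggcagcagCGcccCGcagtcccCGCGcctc

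The 6 windows held 18 to 51 CG dinucleotides each, where the median of all 32851 windows was 7. Their GC content was 65.7% to 86.3%, against a median of 52.7%. Both strands were searched for a TCF/LEF core, spelled CTTTG and then AA, AT, TA or TT. Of the 6 windows, 1 held a match, and 16.9% of all windows of this length did. The match lay in the *Wnt3* window and began at position 19, counting the start as 1. It is in capitals in the 30 bases around it, at chr11:103774182-103774211 on the plus strand.
Wnt3: cctcaagtggaCTTTGTTccaactattggg
The Gli core GACCACCC, searched on both strands, was in 0 of the 6 windows and in 0.807% of all windows. A match is a run of letters and not a measured binding site, and no match says only that these letters are not in the window. In the order of genes on the chromosomes, *Wnt6* is next to *Wnt10a* on chromosome 1, *Wnt10b* next to *Wnt1* on chromosome 15, *Wnt3* next to *Wnt9b* and *Wnt3a* next to *Wnt9a* on chromosome 11.

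Against control eyes, *Wnt3*, *Wnt10b*, *Wnt7a*, *Wnt7b*, *Wnt5a*, *Wnt6* and *Wnt10a* were higher in *RBS* lesions, with log2 differences from 3.15 for *Wnt3* down to 0.66 for *Wnt10a*. These 7 of 9 ligands passed an adjusted *p* under 0.05 (limma, Benjamini-Hochberg over all 770 genes), and 0 were lower, adjusted or unadjusted. Of all genes of the panel, 33.0% were higher by the same rule and 18.2% lower. The members' median log2 difference was 1.11, beside 0.17 over all genes. Over all 15 Wnt ligands of the panel, 7 were higher and the median was 0.73. The members were chosen with earlier results known, so their split from the other ligands is not independent of these data. In 6 ligands every *RBS* lesion was above every control eye, as in 27.5% of all genes, and in 0 it was the reverse, as in 15.8%. *Wnt3a* and *Wnt4* did not pass. In whole tissue, a change in the number of cells that make a ligand and a change in RNA per cell cannot be told apart.

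**Figure D1:**
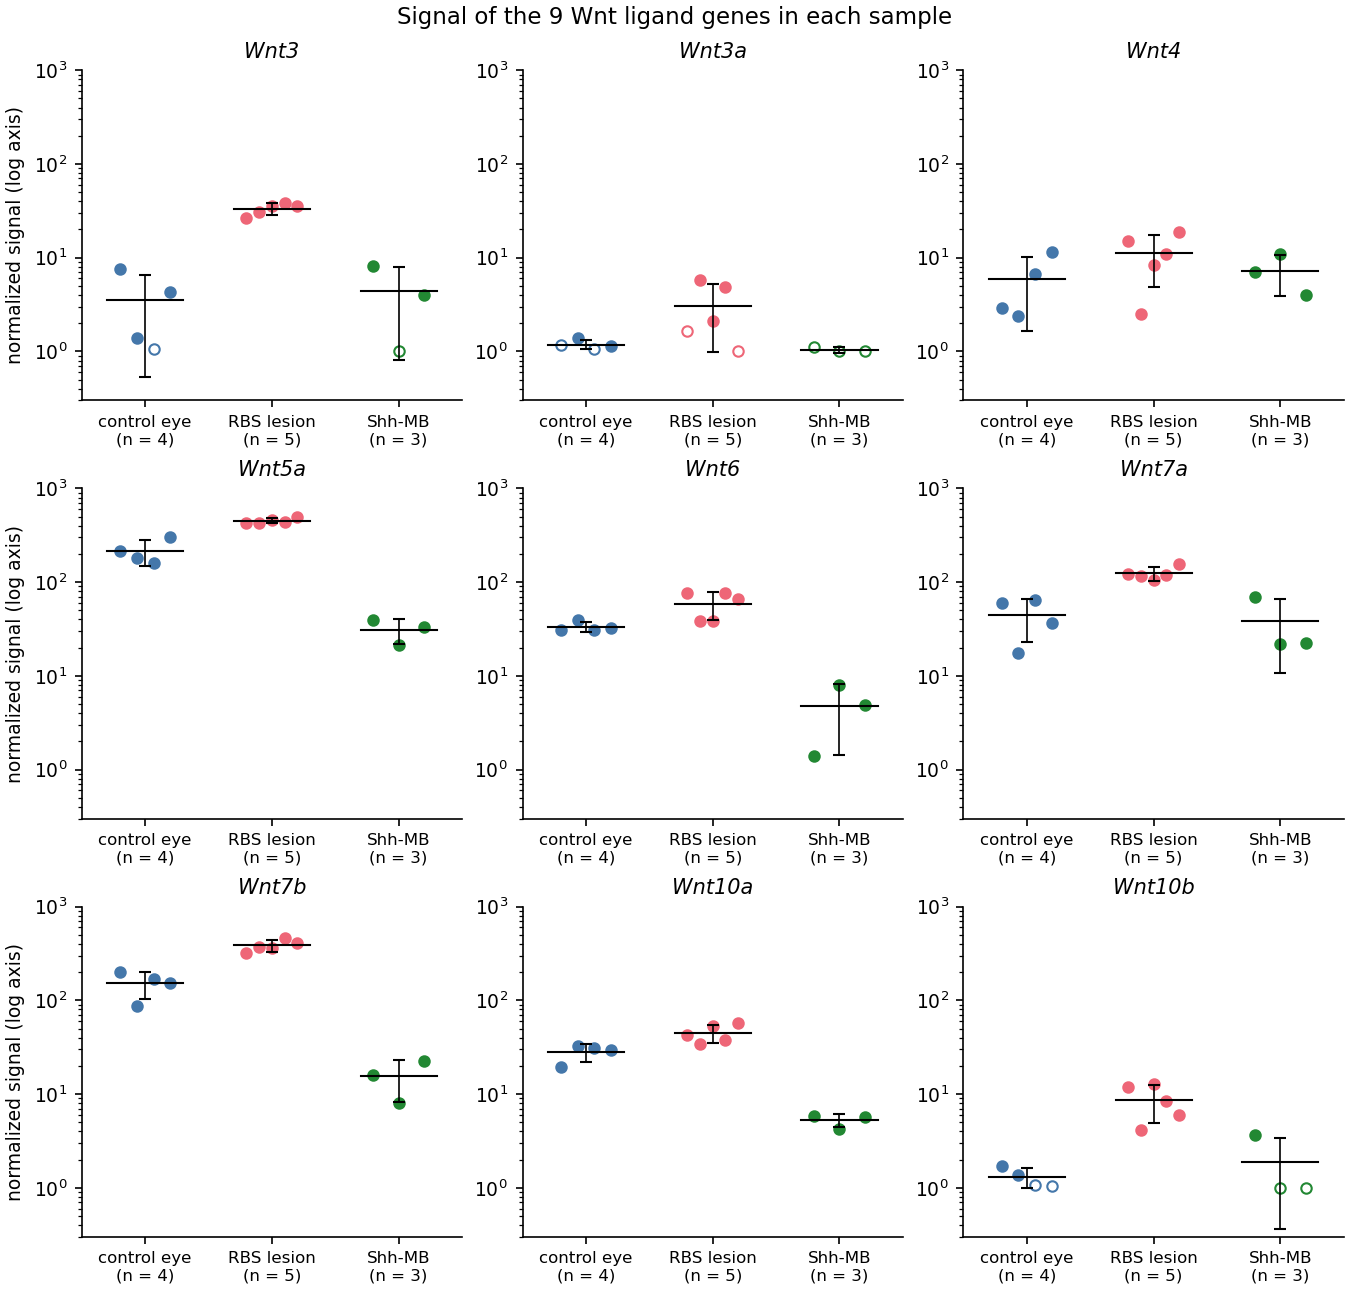
Normalized signal of the 9 Wnt ligands in each control eye, *RBS* lesion and Shh-MB, on a log axis. Points are samples, open points lie at the lowest value of their sample, and lines give the mean ± SD. *Wnt3*, *Wnt5a*, *Wnt7a*, *Wnt7b*, *Wnt10a* and *Wnt10b* do not overlap between *RBS* lesions and control eyes.

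*Wnt3*, a ligand of the beta-catenin branch that is needed for formation of the body axis, had the largest difference of the 9. Its signal was 7.57, 1.38, 1.06 and 4.25 in control eyes 1 to 4, with control 3 at its lowest value. In *RBS* lesions 1 to 5 it was 26.7, 30.9, 35.6, 38.6 and 35.2. The lowest lesion was thus well above the highest control eye, and the lesions lay close together (33.4 ± 4.65, SD, *n* = 5) while the control eyes were near the floor (3.57 ± 3.03, SD, *n* = 4). This is a log2 difference of 3.15 (standard error, SE, 0.394; 95% interval 2.25 to 4.04, adjusted *p* = 0.000191, limma). In Shh-MBs 1 to 3 *Wnt3* was 8.10, 1 and 4.03. Tumor 1 was above every control eye, and tumor 2, like control 3, was at the lowest value of its sample, so these groups overlapped. *RBS* lesions exceeded Shh-MBs by 2.92 (SE 0.427, adjusted *p* = 0.000485, limma). With 5 in place of 1 added before the log, the difference was 2.22 to control eyes and 2.10 to Shh-MBs. With values under 20 set to 20, it was 0.73 to both. This is below the smallest difference of *Wnt7a* to control eyes in any alternative (1.22).

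*Wnt3a*, the closest relative of *Wnt3* and a driver of somite and hippocampus formation, stayed near the floor in all tissues. It was 1.17, 1.38, 1.06 and 1.13 in control eyes 1 to 4, with controls 1 and 3 at the lowest value. *RBS* lesions 1 to 5 had 1.64, 5.78, 2.14, 4.87 and 1, of which lesions 1 and 5 were at the lowest value. The groups overlapped, and the log2 difference of 0.75 did not pass the threshold (95% interval -0.0401 to 1.53, adjusted *p* = 0.106, limma). Without RBS 5 it was 0.97 and passed (adjusted *p* = 0.0309, limma). All 3 Shh-MBs were at their lowest value, so a difference to them is a difference to the floor and not a fold.

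*Wnt7a* and *Wnt7b* are close relatives known for guiding the growth of blood vessels into the central nervous system, and *Wnt7b* from macrophages takes part in the regression of fetal vessels in the eye. *Wnt7a* was 59.2, 17.6, 65.1 and 36.5 in control eyes 1 to 4. In *RBS* lesions 1 to 5 it was 122, 117, 105, 118 and 158, so the lowest lesion exceeded the highest control eye, and the control eyes were the more spread group. *RBS* lesions exceeded control eyes by 1.60 on the log2 scale (SE 0.346, 95% interval 0.817 to 2.38, adjusted *p* = 0.00406, limma). In Shh-MBs 1 to 3 the signal was 69.7, 22.1 and 22.7, spanning nearly the same range as the control eyes. Tumor 1 stood above the other tumors and above every control eye. *RBS* lesions were above Shh-MBs by 1.87 (SE 0.367, adjusted *p* = 0.00231, limma).

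*Wnt7b* was 201, 86.5, 169 and 152 in control eyes 1 to 4. *RBS* lesions 1 to 5 had 319, 368, 362, 465 and 410, all above the control eyes. They were higher by 1.38 on the log2 scale (SE 0.233, 95% interval 0.858 to 1.91, adjusted *p* = 0.000993, limma). Control 2 was the lowest control eye for both *Wnt7a* and *Wnt7b*. In Shh-MBs 1 to 3 *Wnt7b* was 15.9, 8.03 and 22.7, below every eye. Against Shh-MBs the lesions were higher by 4.64 (SE 0.292, adjusted *p* = 6.22e-06, limma), the largest of the 9 in that comparison. Unlike *Wnt7a*, *Wnt7b* was lower in Shh-MBs than in control eyes (log2 difference -3.25, SE 0.409, adjusted *p* = 0.000804, limma), beside -0.27 (adjusted *p* = 0.775) for *Wnt7a*, and the gap between the 2 genes was not tested.

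*Wnt5a* is the best known ligand of the branches that do not need beta-catenin and acts in tissue outgrowth and cell polarity. Its signal was 215, 179, 160 and 306 in control eyes 1 to 4. In *RBS* lesions 1 to 5 it was 424, 432, 462, 444 and 493. No lesion reached down to the highest control eye, and the lesions varied little (451 ± 27.3, SD, *n* = 5), with a coefficient of variation of 6.06%, against 30.3% in control eyes. The log2 difference was 1.11 (SE 0.176, 95% interval 0.709 to 1.51, adjusted *p* = 0.000738, limma). In Shh-MBs it was 39.5, 21.1 and 32.9, below every eye. *RBS* lesions exceeded Shh-MBs by 3.85 (SE 0.188, adjusted *p* = 2.2e-06, limma), and the difference of Shh-MBs to control eyes was -2.75 (SE 0.293, adjusted *p* = 0.000374, limma).

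*Wnt4*, known for its role in kidney tubules and the female reproductive tract, did not pass the threshold in any of the 3 comparisons. It was 2.88, 2.39, 6.72 and 11.5 in control eyes 1 to 4 and 15.2, 2.54, 8.31, 10.9 and 18.8 in *RBS* lesions 1 to 5. RBS 2 lay among the lowest control eyes and control 4 among the lesions. The log2 difference was 0.81, with a 95% interval from -0.455 to 2.07 (adjusted *p* = 0.265, limma). Shh-MBs had 6.99, 10.8 and 4.03, within the range of both eye groups. The difference of *RBS* lesions to Shh-MBs was 0.42 (adjusted *p* = 0.543, limma), and its sign turned with median centring (-0.42) and with quantile normalization (-0.81).

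*Wnt6* and *Wnt10a* are neighbouring genes, both expressed in surface ectoderm during development, and *Wnt10a* is required for teeth and hair. *Wnt6* was 31.0, 39.9, 31.1 and 32.4 in control eyes 1 to 4. *RBS* lesions 1 to 5 had 76.0, 38.2, 38.3, 76.0 and 65.4, which places lesions 2 and 3 below control 2 and the other three well above it. Over all lesions the log2 difference was 0.73 (SE 0.243, 95% interval 0.177 to 1.28, adjusted *p* = 0.0320, limma). This call did not hold in 13 of 21 alternatives, among them median centring (0.55, adjusted *p* = 0.0931, limma) and leaving out any one of controls 1, 3 and 4 or lesions 1, 4 and 5. In Shh-MBs *Wnt6* was 1.39, 8.03 and 4.87, below every eye.

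*Wnt10a* was 19.3, 32.8, 31.1 and 29.3 in control eyes 1 to 4. In *RBS* lesions 1 to 5 it was 43.1, 34.1, 53.3, 37.4 and 57.2, above every control eye, but RBS 2 by a small margin. The log2 difference was 0.66 (SE 0.202, 95% interval 0.202 to 1.12, adjusted *p* = 0.0228, limma). Lesions 1, 4 and 5 were highest for *Wnt6*, while lesions 1, 3 and 5 were highest for *Wnt10a*. The *Wnt10a* call was lost with median centring (0.48, adjusted *p* = 0.101, limma), quantile normalization (0.39, adjusted *p* = 0.193), without control 1 (0.50, adjusted *p* = 0.0561) and without RBS 3 (0.59, adjusted *p* = 0.0517). In Shh-MBs the signal was 5.87, 4.29 and 5.72, and these values lay close together and below every eye.

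Against Shh-MBs, *RBS* lesions were higher in *Wnt6* by 3.51 (SE 0.453, adjusted *p* = 0.00025, limma) and in *Wnt10a* by 2.85 (SE 0.197, adjusted *p* = 1.02e-05, limma). Control eyes also stood above Shh-MBs in both, with differences of Shh-MBs to control eyes of -2.78 (adjusted *p* = 0.0022, limma) and -2.19 (adjusted *p* = 0.000234, limma). The *Wnt6* call here was lost with quantile normalization (-1.72, adjusted *p* = 0.0984, limma) and with the methods' t-test adjusted by Benjamini-Hochberg (adjusted *p* = 0.0939).

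*Wnt10b*, a beta-catenin branch ligand known for favouring bone over fat cells, was near the floor in control eyes and low in *RBS* lesions. It was 1.71, 1.38, 1.06 and 1.04 in control eyes 1 to 4, with controls 3 and 4 at the lowest value. In *RBS* lesions 1 to 5 it was 11.95, 4.16, 12.7, 8.49 and 5.97. All lesions were above all control eyes, and RBS 2 came closest to them. On the log2 scale the rise was 1.99 (SE 0.287, 95% interval 1.34 to 2.64, adjusted *p* = 0.000426, limma). In Shh-MBs it was 3.63, 1 and 1, of which tumors 2 and 3 were at the lowest value, and *RBS* lesions were higher by 1.77 (SE 0.412, adjusted *p* = 0.00568, limma). With 5 added before the log the differences were 1.07 and 0.97, and with quantile normalization the one to Shh-MBs was 1.197 (adjusted *p* = 0.0502, limma). All values lay below 20, so no difference remained with values under 20 set to 20.

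The number of ligands called against control eyes depended on the test. With the methods' t-test, run without its permutations and with step-down Bonferroni adjustment, 0 of the 9 passed, though 7 had an unadjusted *p* under 0.05, and 41 of all genes passed as higher. Adjusted by Benjamini-Hochberg, the same test gave 5 ligands, with *Wnt7a* and *Wnt6* lost (adjusted *p* = 0.0593 for both). Without control 1, limma called 5 of the 9, as it did with median centring and with quantile normalization.

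**Figure D2:**
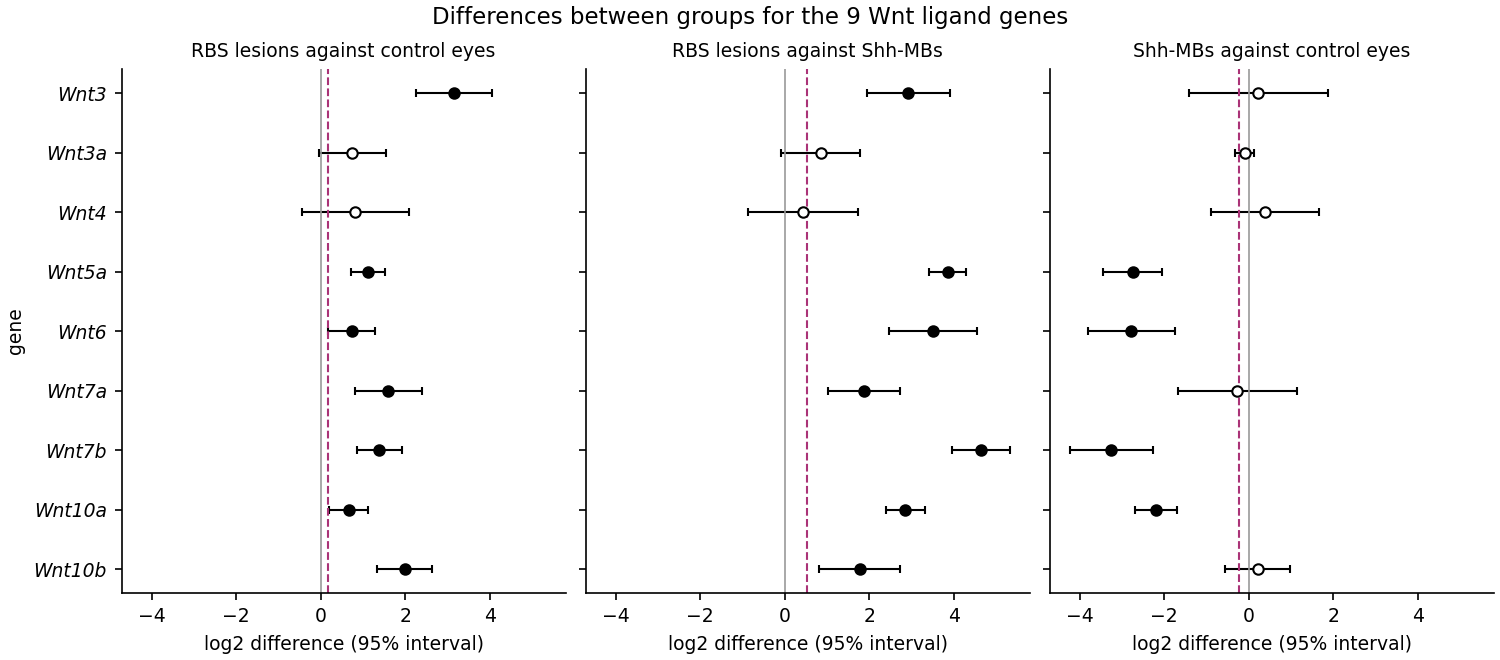
Log2 differences of the 9 Wnt ligands in the 3 comparisons, on the scale of log2(signal + 1), with 95% intervals from limma. Filled points passed an adjusted *p* under 0.05, and the dashed line is the median of all 770 genes. Differences of *RBS* lesions to control eyes run from 0.66 for *Wnt10a* to 3.15 for *Wnt3*, and those of Shh-MBs to control eyes go as low as -3.25 for *Wnt7b*.

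Against Shh-MBs, 7 of 9 ligands were higher in *RBS* lesions and 0 were lower, adjusted or unadjusted. *Wnt3a* and *Wnt4* did not pass here either. Of all genes, 48.1% were higher by this rule and 12.7% lower. The members' median log2 difference was 2.85, beside 0.53 over all genes, and in 7 ligands the groups did not overlap, as in 47.0% of all genes in this direction. With the methods' t-test, without its permutations and with step-down Bonferroni adjustment, 1 ligand passed, *Wnt10a*, although 6 had an unadjusted *p* under 0.05. Adjusted by Benjamini-Hochberg, this test gave 5, with *Wnt7a* (adjusted *p* = 0.109) and *Wnt3* (adjusted *p* = 0.075) lost.

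Between Shh-MBs and control eyes, 4 of 9 ligands were lower in Shh-MBs, *Wnt7b*, *Wnt6*, *Wnt5a* and *Wnt10a*. Of all genes, 31.4% were lower and 9.61% higher, and the members' count stands near this background. Their median was -0.27, beside -0.22 over all genes. In the same 4 the groups did not overlap, as in 36.0% of all genes in this direction. With limma, 0 ligands were higher, adjusted or unadjusted, while with median centring 2 passed as higher, *Wnt3a* and *Wnt10b*, both at or near the floor. With an exact permutation test, two-sided and adjusted by Benjamini-Hochberg, 0 ligands were lower, because 4 against 3 samples cannot go below *p* = 0.0286, which these 4 reached. Its adjusted *p* was 0.0703 for each. The comparisons share samples, so their values stand side by side and are not independent of each other.

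By group means, 6 of the 9 ligands had the order *RBS* lesions, control eyes, Shh-MBs, as did 39.9% of all genes. In 3 of them, *Wnt5a*, *Wnt7b* and *Wnt10a*, no neighbours in this order overlapped, as in 8.83% of all genes. For *Wnt3a* and *Wnt7a*, Shh-MBs were above control eyes with median centring (log2 differences 0.57 and 0.39), and *Wnt7a* also with quantile normalization (0.78). In *Wnt6* the lesions and control eyes overlapped, in *Wnt7a* the control eyes and Shh-MBs, and in *Wnt3a* all groups. *Wnt3*, *Wnt4* and *Wnt10b* had Shh-MBs between lesions and control eyes, and in these 3 the tumors and control eyes overlapped.

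The other 6 Wnt ligands of the panel are *Wnt1*, *Wnt2*, *Wnt2b*, *Wnt5b*, *Wnt11* and *Wnt16*. Of these, 0 passed between *RBS* lesions and control eyes in limma, and 1 had an unadjusted *p* under 0.05. Their median log2 difference was -0.12. *Wnt2b*, known from the ciliary margin of the eye, was 72.8 ± 24.8 (SD, *n* = 4) in control eyes and 110 ± 40.3 (SD, *n* = 5) in *RBS* lesions, with overlapping values (difference 0.56, adjusted *p* = 0.179, limma). *Wnt5b*, the closest relative of *Wnt5a*, was 83.4 ± 14.9 (SD, *n* = 4) in control eyes and 75.3 ± 19.7 (SD, *n* = 5) in lesions (-0.17, adjusted *p* = 0.526, limma). *Wnt11*, another ligand of the branches without beta-catenin, was 63.3 ± 16.4 (SD, *n* = 4) and 52.9 ± 14.8 (SD, *n* = 5) (-0.26, adjusted *p* = 0.413, limma).

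*Wnt16* had the unadjusted call, with 7.27 ± 4.55 (SD, *n* = 4) in control eyes and 1.92 ± 0.898 (SD, *n* = 5) in lesions, 2 of them at the lowest value. Its log2 difference was -1.29 (adjusted *p* = 0.0556, limma). It passed as lower in 5 alternatives, among them median centring (adjusted *p* = 0.0364) and leaving out control 1, the eye at its lowest value (adjusted *p* = 0.00124). *Wnt1* and *Wnt2* were near the floor in all groups. Against Shh-MBs, *Wnt2b*, *Wnt5b* and *Wnt11* were higher in *RBS* lesions and *Wnt16* was lower. The first 3 were also lower in Shh-MBs than in control eyes, and *Wnt11* was at the lowest value in all 3 tumors. A difference in response between these 6 and the 9 members was not tested.

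**Figure D3:**
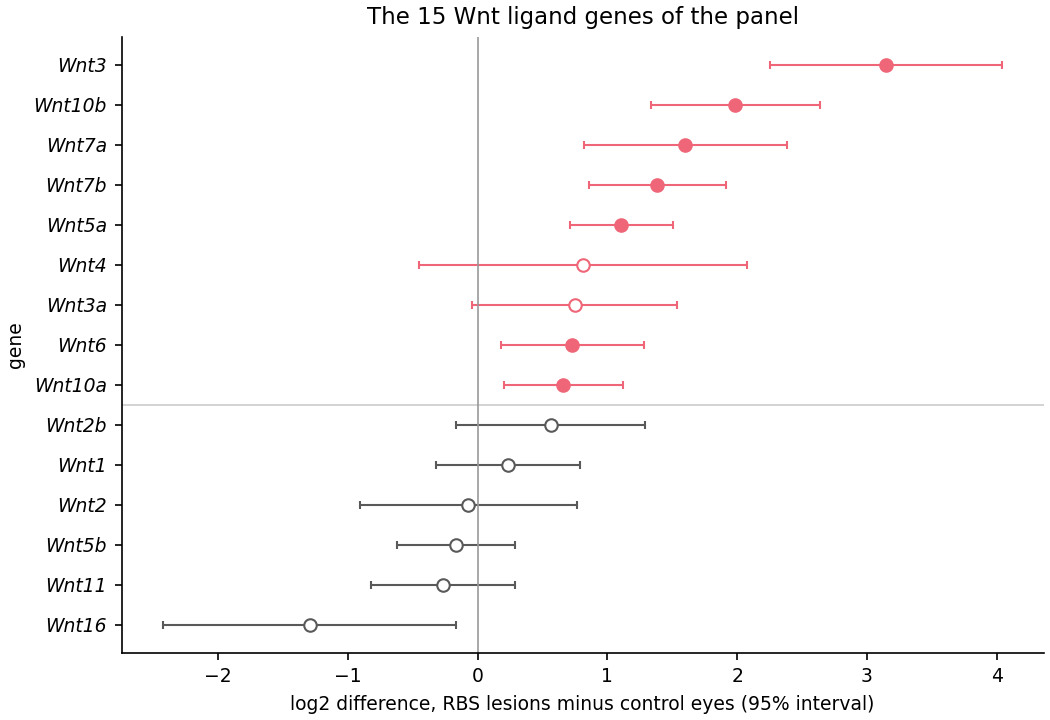
Log2 difference of *RBS* lesions to control eyes for all 15 Wnt ligands of the panel, on the scale of log2(signal + 1), with 95% intervals. Filled points passed an adjusted *p* under 0.05 in limma. All 7 filled points are members of the list, which was chosen with earlier results of these data known. The 6 other ligands range from -1.29 for *Wnt16* to 0.56 for *Wnt2b*.

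The counts for other pathway genes stand beside 33.0% of all genes higher and 18.2% lower, and a median of 0.17. Of the genes that receive and pass on Wnt signals, 3 of 6 receptors on the panel were higher in *RBS* lesions, with control eyes as the reference, 0 lower, and the list's median log2 difference was 0.66. *Fzd9*, a Frizzled receptor of the developing brain, rose by 2.07 and *Fzd3*, a Frizzled receptor of axon guidance, by 1.04 (adjusted *p* = 0.000283 and 0.000329, limma). Of 9 cytoplasmic transducers 7 were higher and 0 lower, with a median of 0.56. *Cxxc4*, which binds Dishevelled and restrains the pathway, differed by 0.96, and *Dvl3*, a Dishevelled protein, by 0.64 (adjusted *p* = 0.000239 and 0.000165, limma). *Ctnnb1* itself, which encodes beta-catenin, rose by 0.48 (adjusted *p* = 0.00063, limma). Of 3 nuclear factors, *Tbl1xr1*, a co-regulator of transcription, and *Tcf7l1*, a TCF factor, were higher, by 0.57 and 0.48. For branches that do not need beta-catenin, 11 of 28 genes written are on the panel, with no *Prickle*, *Vangl* or *Celsr* gene among them. In this list, 8 of 11 genes were higher and 0 lower, with a median of 0.61. *Plcb1*, a phospholipase, and *Mapk10*, a JNK kinase of neurons, led it with 2.39 and 2.23.

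Of 8 secreted antagonists on the panel, 2 were higher and 3 lower, and the median was -0.25. Counts this small, like those of the target and Hedgehog lists below, are not far from the panel's shares of 33.0% and 18.2%. *Wif1*, which binds Wnt proteins outside the cell, rose by 1.35 (adjusted *p* = 0.00331, limma), and *Dkk2*, a ligand of the co-receptors, fell by 1.40 (adjusted *p* = 0.000114, limma). Of 9 feedback and target genes of beta-catenin, 2 were higher and 2 lower, with a median of 0.06. *Axin2*, a feedback gene of the pathway, rose by 0.92 (adjusted *p* = 0.000292, limma) and *Ccnd1*, which encodes cyclin D1, fell by 2.92. Of the genes for secretion and R-spondin signals the panel held 1, *Rnf43*, which did not pass (0.29). Of 8 Hedgehog core genes, 2 were higher and 3 lower, with a median of 0.08. *Lrp2* and *Ptch1*, which bind Hedgehog ligands, rose by 2.67 and 2.21. The 3 lower genes were *Gli3* and *Gli1*, transcription factors of the pathway, at -1.34 and -0.67, and *Gas1*, a co-receptor, at -0.95 (adjusted *p* = 7.28e-05, 0.0056 and 0.00047, limma). *Smo* differed by 0.18 (adjusted *p* = 0.164, limma), and its sign turned with other scalings.

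**Figure D4:**
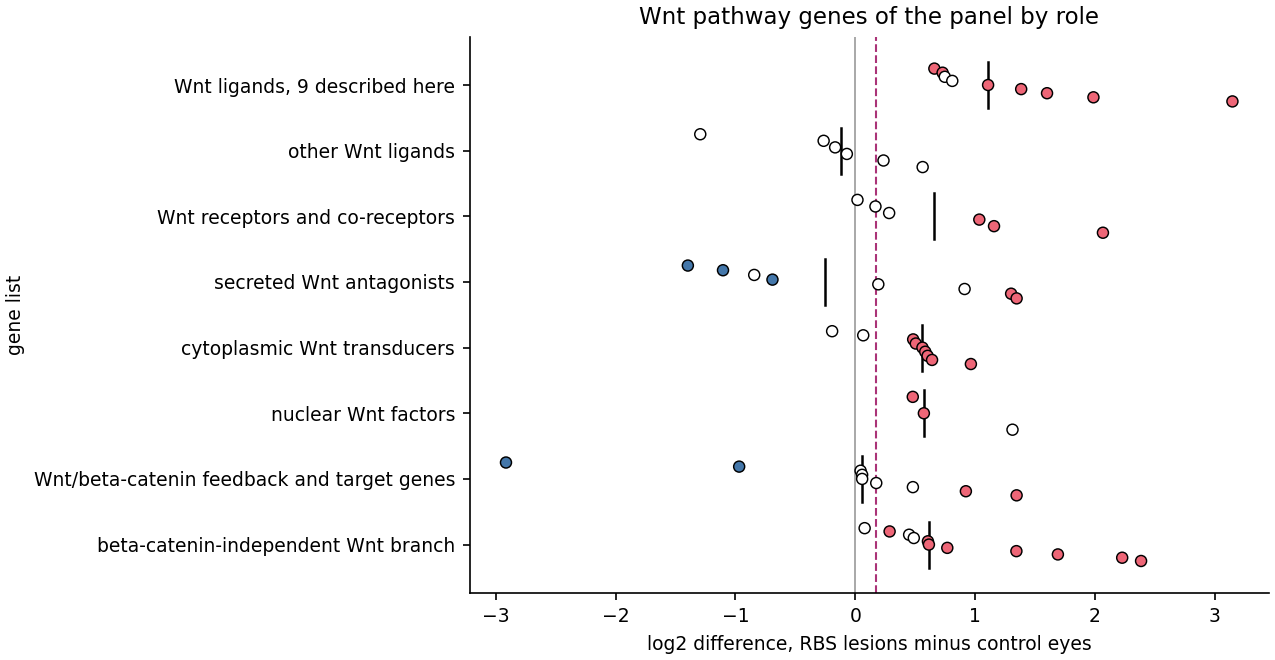
Log2 differences of *RBS* lesions to control eyes for the lists of Wnt pathway genes, on the scale of log2(signal + 1). The list of secretion and R-spondin genes is not drawn. Each point is a gene, red where higher and blue where lower where limma's adjusted *p* was under 0.05, white otherwise, and the bar is the median of the list. The members have a median of 1.11, the other Wnt ligands of -0.12 and the receptors of 0.66.

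Marker counts are for *RBS* lesions against control eyes, where 33.0% of all genes were higher and 18.2% lower. Of 15 surface epithelium markers 8 are on the panel, and 4 of them, *Calml3* and *Itga2* among them, were higher in *RBS* lesions when set against control eyes. Their summed signal was 343 to 681 in control eyes, 629 to 1139 in lesions and 21.0 to 26.3 in Shh-MBs, where *Calml3* and *Itga2* were at the lowest value in all tumors. Of 7 neuron markers on the panel, 6 were higher in lesions than in control eyes. These summed to 680 to 826 in control eyes, 2432 to 3199 in lesions and 696 to 984 in Shh-MBs, and *Rasgrf1* was at the lowest value in all control eyes. *Mapt*, with means of 615, 2006 and 306, made up much of the sums in the eyes. In Shh-MBs it was lower than in control eyes, while 4 of the 7 markers (*Cacna1e*, *Gria3*, *Grin1* and *Grin2b*) were higher, by 0.93 to 2.91. Blood and immune markers (7 on the panel, 3 higher) summed to 134 to 206, 252 to 301 and 132 to 255. Mesenchyme markers (7 on the panel, 2 lower) summed to 25546 to 57829, 19843 to 36410 and 1475 to 2099. *Col1a1* and *Col3a1*, with means of 18526 and 13597 in control eyes, made up much of the sums in the eyes. Between Shh-MBs and control eyes, 6 of the 7 were lower and 1, *Pdgfra*, was higher. Its means were 349 in control eyes, 483 in lesions and 982 in Shh-MBs, and all tumors were above all eyes. The part of any of these cell types in the ligand differences was not tested. None of the 13 markers written for retina, lens and pigment epithelium is on the panel, so the eye label was not checked this way, while 4 granule cell precursor markers summed to 6954 to 8442 in Shh-MBs and at most 2440 in the eyes.

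For each ligand, the genes of the panel with the most similar profile over the 12 samples were listed by the mean absolute difference of log2 values centred on each gene. This is a description over 12 samples of 3 groups, and *Wnt3a* and *Wnt10b* were left out because they were at the lowest value in more than 3 samples. *Wnt5a* was closest to *Hspa1a* and *Notch3*, both at 0.26, and to *Rac3* at 0.26. *Wnt7b* was closest to *Notch3* (0.39), *Fst* (0.40) and *Wnt5a* (0.41), the only other ligand that appeared for any member. *Wnt7a* was closest to *Fgfr3* (0.26), *Prkca* (0.29) and *Fas* (0.39), and *Fgfr3* (0.58) and *Fas* (0.62) were also on the list of *Wnt3*, with *Grin2b* (0.61). *Wnt6* was closest to *Bmp2* (0.36), *Erbb2* (0.41) and *Cacna1h* (0.43). *Wnt10a* was closest to *Figf* (0.26), *Efna5* (0.28) and *Tcf7l1* (0.31). *Wnt4* was closest to *Map3k8* (0.45), *Cblc* (0.49) and *Numbl* (0.54).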

How the data were processed

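RNA of 5 *RBS* lesions, 4 control eyes and 3 Shh-MBs was measured on a murine nCounter panel of 770 genes. Normalization by the authors used nSolver (4.0.70) and nCounter Advanced Analysis (2.0.115), as the submitters' processing notes list them. The deposited values hold linear, normalized signal. They behave as counts from which a background was subtracted and which were scaled by 1 factor per sample. The background setting is not given in the sources used here, and subtraction pushes weak genes such as *Wnt3a* and *Wnt10b* to the lowest value. Depth was 335392 to 716684 counts above background, and 0 sample pairs were identical.

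The analysis used log2(signal + 1), with no filter. Groups, taken from sample titles, were compared in pairs by limma (3.58.1, under R 4.3.3, two-sided, Benjamini-Hochberg over 770 genes, threshold 0.05), after tests on simulated data. The members and the gene and marker lists were chosen with earlier results of these data known. All members were named, with *Ctnnb1*, *Smo*, *Axin2*, up to 2 genes per pathway list past the threshold with the largest difference to control eyes and no overlap, and the 3 genes of most similar profile per member. *Fzd* and marker genes beyond these, and the other Wnt ligands, are named from their lists, *Rnf43* as the only gene of its list, and *Gli1*, *Gli3* and *Gas1* after their values were seen. Of the 770 symbols, 760 matched the RefSeq table (GRCm38.p6) directly. Promoter sequences are from RefSeq. The human samples were not analysed here. The alternatives were the methods' t-test without its permutations (step-down Bonferroni or Benjamini-Hochberg), an exact permutation test, limma with trend and robust settings or all 12 samples, median centring, quantile normalization, scaling to the total after removal of the 3 most abundant genes, a filter or floor at 20, a pseudocount of 5, the replicate number as a block and leaving out each sample. Figures were drawn with matplotlib 3.10.9.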

Additional observations from a re-analysis of the deposited data

Results flagged for a closer look

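Among the 18 sets of member values in control eyes and *RBS* lesions, 1 held a value far from the others. *Wnt6* in control 2 was 39.9, and the next highest control eye had 32.4. The gap took a share of 0.849 of the range of the 4 control eyes. Chance flags about 1 in 20 such sets.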

How the results depend on the processing

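Over the 9 ligands and 3 comparisons, 526 log2 differences were recomputed. Of these, 462 did not change sign or cross the threshold, 47 lost the call, 4 gained one and 13 changed sign. With values under 20 set to 20, 8 of the 462 and 2 of the 47 became 0 and so have no direction. None of the sign changes was in *RBS* lesions against control eyes. There, *Wnt3*, *Wnt5a*, *Wnt7a*, *Wnt7b* and *Wnt10b* passed under every scaling tried. With the methods' t-test, 0 of the 9 passed after step-down Bonferroni adjustment, and *Wnt7a* was also lost after Benjamini-Hochberg adjustment. *Wnt10b* fell to a difference of 0 with values under 20 set to 20. Signal near the floor limits *Wnt3a*, *Wnt10b*, *Wnt4* and, outside *RBS* lesions, *Wnt3*.

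With the methods' t-test and step-down Bonferroni adjustment, the number of higher ligands was 0 against control eyes and 1 against Shh-MBs, and the number lower in Shh-MBs than in control eyes was 0. The exact permutation test also gave 0 for the last count. Leaving out low genes gave 2 (*Wnt5a* and *Wnt7b*), since *Wnt6* and *Wnt10a* were themselves left out. With median centring, 2 ligands were higher in Shh-MBs than in control eyes (*Wnt3a* and *Wnt10b*). Leaving out each sample gave 5 to 7 higher ligands against control eyes, 7 to 8 against Shh-MBs and 4 to 4 lower in Shh-MBs than in control eyes, with 0 in the other direction in each. The cause of these shifts was not tested.

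Median centring moved the median of all genes from 0.17 to -0.01 for *RBS* lesions against control eyes, from 0.53 to -0.32 against Shh-MBs and from -0.22 to 0.44 for Shh-MBs against control eyes. Signs turned for *Smo* against control eyes (-0.0032 centred, -0.023 quantile), and against Shh-MBs for *Wnt3a* (-0.0013 centred) and *Wnt4* (-0.42 centred, -0.81 quantile). For Shh-MBs against control eyes they turned for *Wnt3a* (0.57 centred, 0.069 with the total without the 3 most abundant genes) and *Wnt7a* (0.39 centred, 0.78 quantile, 0.032 with that total). Leaving out a sample turned *Wnt2* against control eyes (-0.34 to 0.13), and in Shh-MBs against control eyes *Wnt3* (-0.28 to 0.81), *Wnt7a* (-0.80 to 0.0032) and *Wnt10b* (-0.19 to 0.41). None of these passed the threshold except *Wnt3a* with median centring (adjusted *p* = 0.0113, limma), a difference between values at or near the floor.

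With the replicate number as a block, 6 ligands were higher against control eyes, 7 against Shh-MBs, and 4 were lower in Shh-MBs than in control eyes. *Wnt3a* passed (0.97, adjusted *p* = 0.039, limma), and *Wnt6* (0.67, adjusted *p* = 0.114) and *Wnt10a* (0.57, adjusted *p* = 0.0858) did not. RBS 5 has no partner in this fit. Deviations of same-numbered lesions and control eyes correlated at -0.108, 0.157, 0.188 and -0.148 across genes for numbers 1 to 4. Lesions 2 and 3 correlated best with the control eye of their own number, and lesions 1 and 4 did not. Whether a number marks a shared litter or batch was not tested.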
